A study of Mus musculus with 7 samples.

Results

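The 40 genes described here encode the proteins of intraflagellar transport (IFT) and of the BBSome. They were taken by symbol and not by a cut on measured values, but earlier results of these data were known when they were chosen. All 40 were found among the 52550 genes of the count table. By their known place in the machinery they fall into IFT-A (6 genes), IFT-B1 (10 genes), IFT-B2 (6 genes), the kinesins of anterograde transport with their accessory subunit (4 genes), the dynein of retrograde transport (2 genes), the BBSome (7 genes), the chaperonin-like proteins that assemble it (3 genes) and 2 genes, *Arl6* and *Lztfl1*, that control where it goes. Total RNA was sequenced from the retinas of 4 WT mice and 3 SCA7 homozygous knock-in mice (SCA7140Q/140Q), a model of spinocerebellar ataxia type 7, all on C57BL/6J and 12.5 weeks old. In the knock-in mice both *Atxn7* alleles carry the expanded CAG repeat at their own locus, so every cell that expresses the gene carries the mutant protein and no WT protein remains. Both retinas of a mouse were pooled into its library, and animals of both sexes were used.

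The outer segment of a photoreceptor is a modified cilium, and because it is renewed throughout life its proteins must keep passing through the connecting cilium. IFT trains carry cargo along the ciliary microtubules, outwards by kinesin-II with IFT-B and back by dynein-2 with IFT-A. The BBSome is a coat-like complex that rides on these trains and moves membrane proteins out of the cilium, and it is brought to membranes by the small GTPase ARL6. Loss of BBSome genes causes Bardet-Biedl syndrome, of which photoreceptor degeneration is a regular feature, and mutations in several IFT genes cause ciliopathies that affect the retina.

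Libraries held between 56497675 and 96635832 counts on genes, and 20128 genes passed the expression filter, all 40 members among them. Levels are given as CPM, counts relative to the TMM-scaled library total. The genotypes were compared with the quasi-likelihood test of edgeR over all genes tested, with Benjamini-Hochberg adjustment, and an adjusted p comes from that fit over all 7 libraries unless a library is named as left out. A gene is written as lower or higher at an adjusted p under 0.05, and as downregulated or upregulated where FC (SCA7/WT) was also under 0.7 or above 1.3. *Atxn7* itself, which the knock-in alters in sequence and not in copy number, had a mean of 39.2 CPM in WT (SD 4.26, n = 4) and of 37.6 CPM in SCA7 (SD 2.99, n = 3; adjusted p = 0.64). The 10 rod marker genes were all detected in every library and together made up 64334 to 66826 CPM in WT and 17813 to 22470 CPM in SCA7. In whole retina, fewer cells of a type and less RNA per cell cannot be told apart.

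The members moved in both directions, and most by less than the FC limits. Summed over the 40 genes the mean level was 2994 CPM in WT (SD 85.3, n = 4) and 2802 CPM in SCA7 (SD 57.5, n = 3), and the median log2 fold change was -0.03, beside -0.02 over all genes tested. Only 2 members were downregulated, *Bbs7* and *Bbs5*, which is 5% of the list against 7.91% of all genes tested. Another 2 were upregulated, *Ift57* and *Arl6*, again 5%, against 7.47% of all genes. The share past the adjusted p alone was higher than over all genes, since 13 members were lower (32.5%, against 14.2% of all genes) and 9 were higher (22.5%, against 14.2%). The other 18 members had an adjusted p of 0.05 or more. These genes are well expressed, at a median of 2463 reads per kilobase of transcript (RPK) in WT, where the protein-coding genes tested had a median of 826 RPK, and no comparison at equal level was made. With WT replicate 2 or SCA7 replicate 1 left out the upregulated members numbered 4, with *Wdr35* and *Ift22* added. Leaving out each of the 7 mice in turn kept 13 of the 22 members with an adjusted p under 0.05 below that value every time. The fewest calls were left without SCA7 replicate 1, with 8 members lower and 5 higher.

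**Figure D1:**
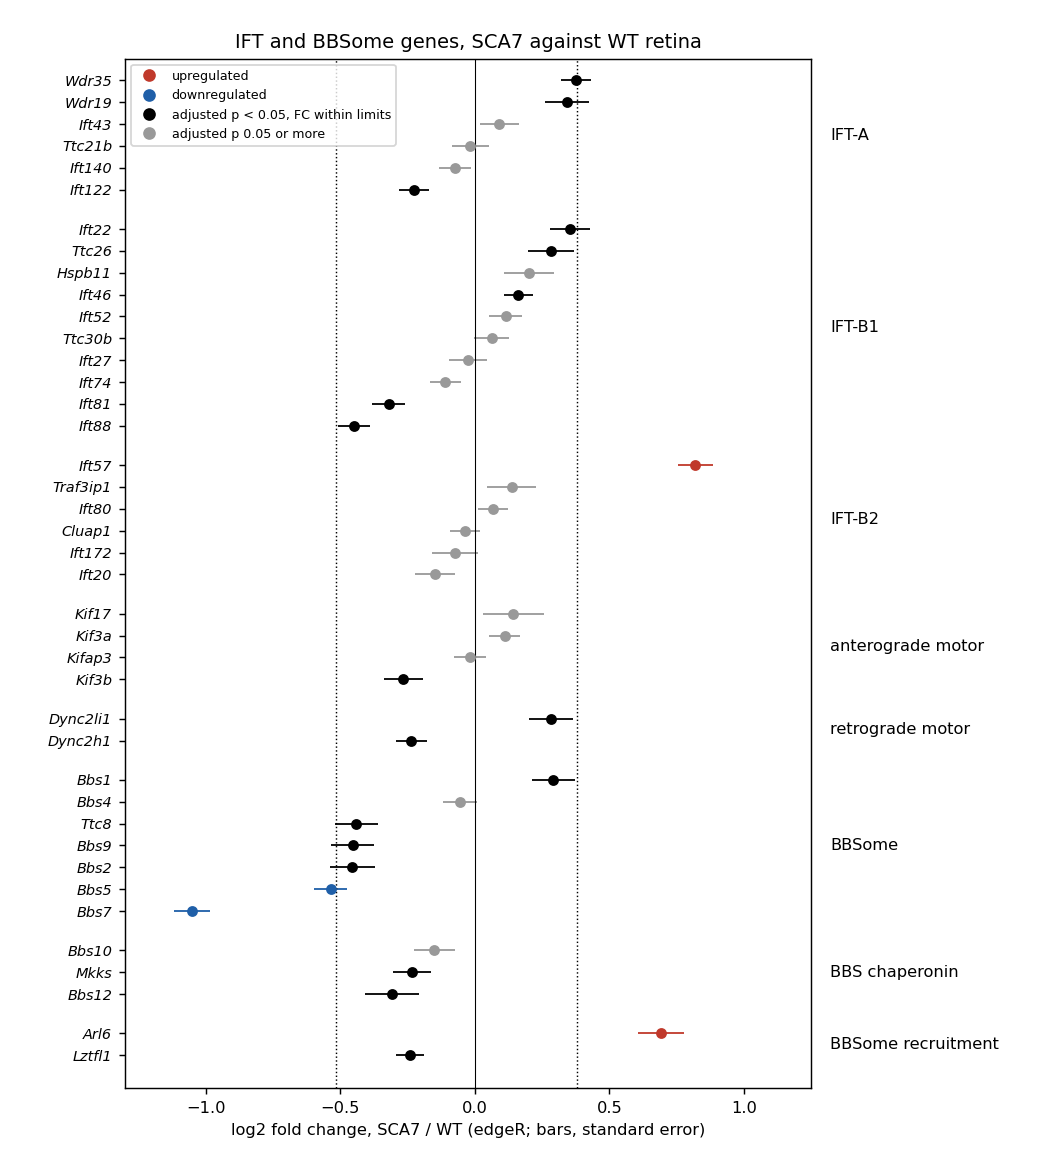
Fold changes of the 40 members in SCA7 against WT retina. The x axis is the log2 fold change of the edgeR fit and bars are standard errors; genes are grouped by subcomplex on the y axis, and dotted lines mark the FC limits of 0.7 and 1.3. *Bbs7* at -1.05 and *Ift57* at 0.82 are the outermost points, and 6 of the 7 BBSome genes lie left of 0, 2 of them left of the lower limit.

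The BBSome was the subcomplex with the most members lower in SCA7, 5 of 7, with 1 higher and 1 that did not pass the test. The chaperonin-like genes had a similar proportion, 2 of 3 lower, and over all genes tested 14.2% were lower and 14.2% higher. The median log2 fold change of the BBSome was -0.45, and the mean summed level of its 7 genes was 1203 CPM in WT (SD 50.4, n = 4) and 908 CPM in SCA7 (SD 29.8, n = 3). The rod markers, summed above, were lower in the same SCA7 libraries, and their part in the decrease of the BBSome genes was not tested. *Bbs7* (ENSMUSG00000037325; chromosome 3 from 36573142 to 36613477 of mm10, minus strand), one of the beta-propeller subunits, was the most reduced. It stood at 284, 269, 274 and 255 CPM in WT replicates 1 to 4 and at 123, 137 and 132 CPM in SCA7 replicates 1 to 3. Every SCA7 library was thus far below every WT library, with a gap between the groups many times the spread within either. The decrease was 51.7%, or -1.05 on the log2 scale with a standard error of 0.07 (adjusted p = 5.5e-07), and the call held under all 17 alternative settings.

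*Bbs5* (ENSMUSG00000063145; chromosome 2 from 69647171 to 69667571, plus strand), the subunit with pleckstrin homology domains that binds phosphoinositides, had 79.9, 78.8, 81.0 and 70.6 CPM in WT and 53.3, 53.4 and 53.9 CPM in SCA7. The 3 SCA7 libraries hardly differed from each other, and all lay below the lowest WT library. On the log2 scale *Bbs5* changed by -0.54 with a standard error of 0.06 (adjusted p = 5.4e-05), an FC of 0.690, just inside the limit of 0.7. Without WT replicate 3 the log2 fold change was -0.51, outside that limit, with an adjusted p of 8.2e-06. *Bbs9*, a scaffold of the complex and its most abundant transcript by CPM, had 322, 322, 346 and 278 CPM in WT against 216, 244 and 234 CPM in SCA7, a log2 fold change of -0.45 (adjusted p = 0.0013). *Bbs2*, another beta-propeller subunit, followed with -0.46 (adjusted p = 0.0016), and *Ttc8* (BBS8), built of tetratricopeptide repeats, with -0.44 (adjusted p = 0.0017). All SCA7 libraries were below all WT libraries for these 3 genes as well, and their FC of 0.730, 0.729 and 0.737 lie just outside the limit that *Bbs5* passed. Without WT replicate 3, *Bbs2* had a log2 fold change of -0.53 and passed it too (adjusted p = 2.0e-06).

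The remaining subunits behaved differently. *Bbs4*, the other tetratricopeptide repeat subunit, had 206, 220.0, 231 and 202 CPM in WT and 207, 206 and 207 CPM in SCA7, so its groups overlapped (log2 fold change -0.06 with a standard error of 0.06, adjusted p = 0.56). *Bbs1* (ENSMUSG00000006464), the subunit that binds ARL6, was higher. Its levels were 97.6, 103, 85.4 and 110.2 CPM in WT and 119.8, 125 and 119 CPM in SCA7, with every SCA7 library above every WT library. *Bbs1* rose by 0.29 on the log2 scale with a standard error of 0.08 (adjusted p = 0.016), and without SCA7 replicate 1 or 2 its adjusted p was 0.052 or 0.072. Among the 20128 genes tested, 18.3% had every SCA7 library below every WT library and 19.3% had the reverse, and among the 7 BBSome genes these numbered 5 and 1.

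**Figure D2:**
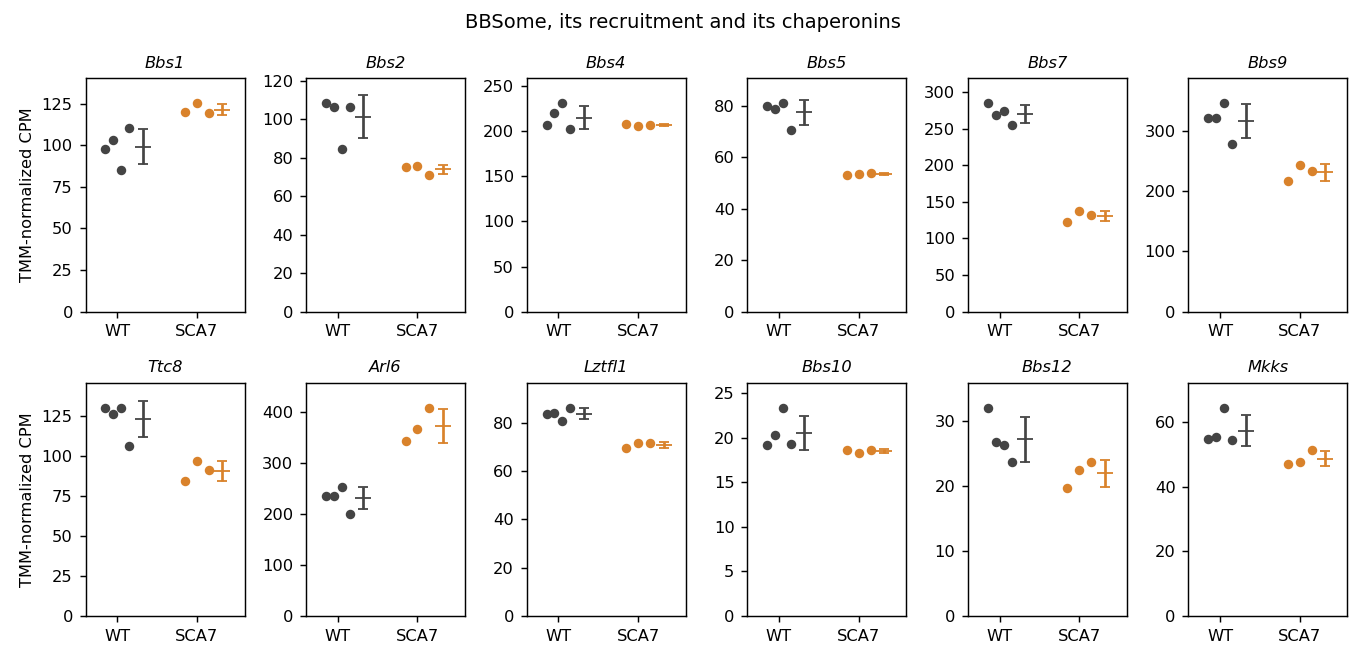
Level of each BBSome gene, of *Arl6* and *Lztfl1* and of the chaperonin-like genes in every library. The y axis is TMM-normalized CPM from 0, points are libraries (4 WT, 3 SCA7), and the mark beside them is the mean with its SD. *Bbs7* drops from 255 to 284 CPM in WT to 123 to 137 CPM in SCA7, whereas *Arl6* rises and *Bbs4* overlaps.

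*Arl6* (BBS3; ENSMUSG00000022722; chromosome 16 from 59612949 to 59639391, minus strand), the GTPase that recruits the BBSome to membranes, moved against most of the complex it recruits. It had 237, 235, 252 and 201 CPM in WT and 344, 367 and 409 CPM in SCA7, and the lowest SCA7 library was well above the highest WT library. Its increase of 61.5%, or 0.69 on the log2 scale with a standard error of 0.09 (adjusted p = 1.0e-04), lay between 0.62 and 0.75 in all 17 alternatives. *Lztfl1* (ENSMUSG00000025245), which restrains entry of the BBSome into cilia, was lower and very even within groups, at 83.6, 83.9, 80.7 and 86.2 CPM in WT and 69.3, 71.6 and 71.4 CPM in SCA7. On the log2 scale *Lztfl1* changed by -0.24 with a standard error of 0.05 (adjusted p = 0.0054).

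The 3 chaperonin-like genes all had lower means in SCA7 and a median of -0.23 on the log2 scale, and none was downregulated. *Mkks* (BBS6) had 54.7, 55.5, 64.4 and 54.4 CPM in WT and 46.9, 47.6 and 51.4 CPM in SCA7 (log2 fold change -0.23, adjusted p = 0.029). *Bbs12* had a log2 fold change of -0.31 (adjusted p = 0.037), and its highest SCA7 library, at 23.7 CPM, was next to its lowest WT library, at 23.8 CPM. *Bbs10*, the least expressed of the 3 per kilobase, had 19.2, 20.2, 23.4 and 19.3 CPM in WT and 18.6, 18.3 and 18.6 CPM in SCA7, which did not pass the test (adjusted p = 0.17). Without SCA7 replicate 1 or 2 the adjusted p of *Mkks* was 0.13 or 0.11, and for *Bbs12* it was between 0.050 and 0.17 without WT replicate 1, 2 or 3 or SCA7 replicate 1 or 2.

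IFT-A, which is needed for the way back and for bringing receptors into the cilium, held 2 genes that were higher and 1 that was lower, with a median log2 fold change of 0.04. Of all genes tested, 14.2% were higher and 14.2% lower. *Wdr35* (IFT121; ENSMUSG00000066643) rose from 59.2, 61.6, 56.7 and 56.1 CPM in WT to 75.7, 76.0 and 75.8 CPM in SCA7, and no SCA7 library came near a WT library. This increase of 29.9%, or 0.38 on the log2 scale with a standard error of 0.05 (adjusted p = 3.3e-04), is just under the FC limit of 1.3. Without WT replicate 1, WT replicate 2 or SCA7 replicate 1 it was 0.38, 0.40 and 0.38, past the limit, and DESeq2 size factors, the DESeq2 Wald test and the fit without a filter also called it upregulated. *Wdr19* (IFT144) was higher by 0.34 (adjusted p = 0.0079), with 31.4 to 39.2 CPM in WT and 41.5 to 48.2 CPM in SCA7, and past the FC limit without WT replicate 4 or SCA7 replicate 3 (0.39 and 0.41), or with the replicate number as a block (0.39). *Ift122* was the IFT-A gene that fell, from 75.6, 78.5, 72.3 and 74.7 CPM in WT to 62.7, 66.7 and 63.6 CPM in SCA7 (log2 fold change -0.23, adjusted p = 0.0098), and without SCA7 replicate 1 or 3 its adjusted p was 0.067 or 0.053. WDR19 and IFT122 belong to the core of IFT-A, and WDR35 to its periphery.

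The other 3 IFT-A genes did not pass the test. *Ift140*, the other core gene, had 38.1, 40.5, 37.2 and 41.5 CPM in WT and 36.8, 37.6 and 37.8 CPM in SCA7, and *Ttc21b* (IFT139), the lowest of IFT-A per kilobase of median transcript, had 31.9, 33.1, 30.6 and 34.8 CPM against 33.9, 33.5 and 29.4 CPM. Their groups overlapped, as did those of *Ift43*, and the adjusted p values were 0.40, 0.89 and 0.38.

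Among the 16 IFT-B genes, 2 were lower and 4 higher at the adjusted p, and the median log2 fold change was 0.07. The shares over all genes tested were 14.2% lower and 14.2% higher. The summed level of IFT-B was 573 to 610.1 CPM in WT and 586 to 604 CPM in SCA7, with overlapping ranges. *Ift57* (ENSMUSG00000032965; chromosome 16 from 49699233 to 49765126, plus strand), an IFT-B2 subunit that partners IFT20, had the largest increase among the 40 genes. It stood at 25.8, 24.3, 24.0 and 22.7 CPM in WT and at 45.3, 42.1 and 40.6 CPM in SCA7. The groups were far apart, and the increase was 76.4%, or 0.82 on the log2 scale with a standard error of 0.07 (adjusted p = 3.1e-06), and lay between 0.78 and 0.85 in all 17 alternatives. No other IFT-B2 gene passed the test, and *Ift20*, *Ift172*, *Cluap1*, *Ift80* and *Traf3ip1* had log2 fold changes from -0.15 for *Ift20* to 0.14 for *Traf3ip1*. Of these genes, *Ift20* was lower with the replicate number as a block, and *Ift20* and *Ift172* were each lower in 1 fit that left out a library. *Ift172*, the highest of them per kilobase of median transcript, had 53.9, 55.5, 44.1 and 59.3 CPM in WT around 49.9, 51.5 and 50.4 CPM in SCA7. *Traf3ip1* (IFT54), the lowest, had 12.0, 12.1, 10.1 and 13.2 CPM in WT and 13.8, 12.4 and 12.9 CPM in SCA7.

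*Ift88* (ENSMUSG00000040040; chromosome 14 from 57424062 to 57517936, plus strand), whose hypomorphic allele in mice leads to malformed outer segments and loss of photoreceptors, had the largest decrease within IFT. Its 4 WT libraries were 36.3, 35.6, 35.3 and 35.2 CPM and its 3 SCA7 libraries 24.7, 27.2 and 26.2 CPM. The WT libraries lay close together, and all SCA7 libraries were below them. *Ift88* fell by 26.8%, or -0.45 on the log2 scale with a standard error of 0.06 (adjusted p = 1.5e-04). *Ift81*, which binds tubulin together with IFT74, had 89.4, 95.6, 89.7 and 86.0 CPM in WT and 68.0, 73.8 and 74.95 CPM in SCA7 (log2 fold change -0.32, adjusted p = 0.0022), and for *Ift74* the log2 fold change was -0.11 (adjusted p = 0.18).

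In the opposite direction, *Ift22*, a small GTPase-like subunit, went from 33.2, 36.4, 36.7 and 30.1 CPM to 41.6, 44.8 and 44.3 CPM (log2 fold change 0.35, adjusted p = 0.0041). Its FC was 1.28, and without WT replicate 2, WT replicate 3 or SCA7 replicate 1 it passed the limit (log2 fold change 0.39 in each case). *Ttc26* (IFT56) and *Ift46* were higher by 0.28 and 0.16 (adjusted p = 0.026 and 0.044). For *Ttc26* the adjusted p was 0.062 without WT replicate 1, and 0.11 without SCA7 replicate 1 or 2. For *Ift46* it was 0.058 to 0.15 in each fit that left out a library except the one without WT replicate 3, and 0.071 without the expression filter. *Ift46* did not pass with the replicate number as a block either. *Ttc30b*, with 26.2, 29.4, 26.0 and 28.2 CPM in WT and 28.0, 29.9 and 28.2 CPM in SCA7, did not pass the test (adjusted p = 0.50). Neither did *Ift52* (adjusted p = 0.18), nor *Ift27* and *Hspb11* (IFT25), whose products form a dimer needed for the exit of the BBSome from cilia (adjusted p = 0.81 and 0.13). In 1 of the 7 fits that left out a library *Hspb11* was higher.

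**Figure D3:**
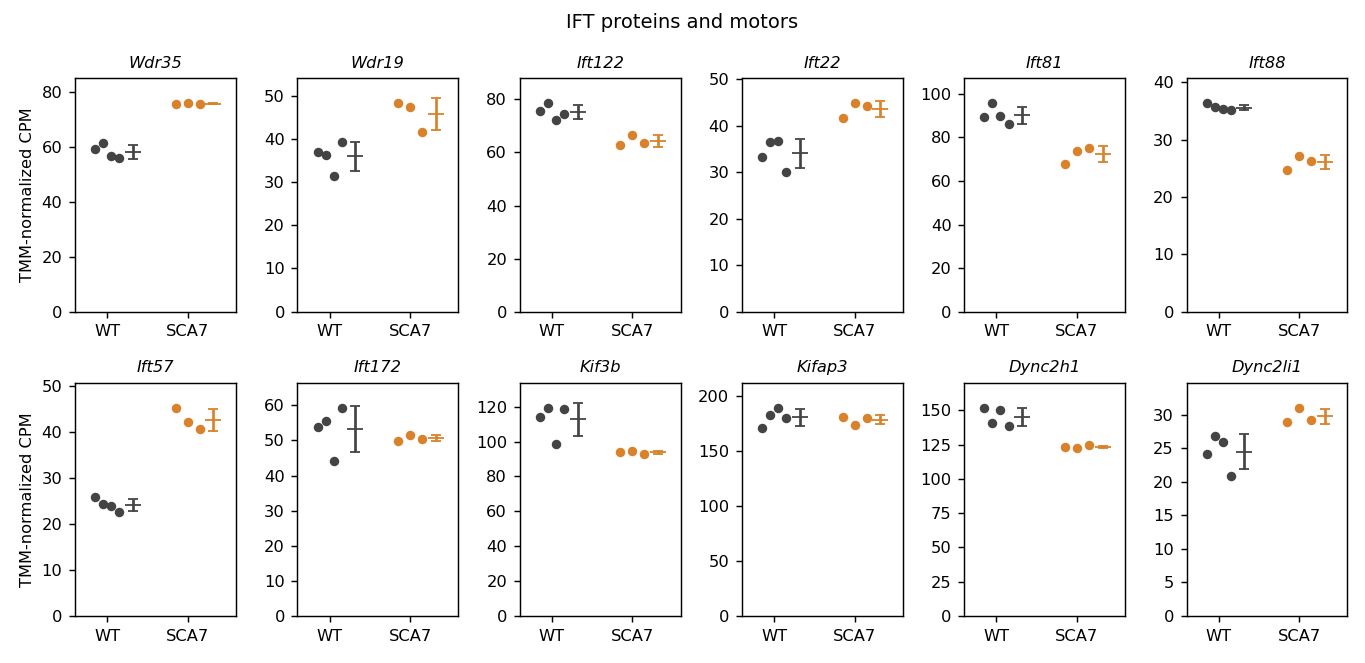
Level of 12 IFT and motor genes in every library. The y axis is TMM-normalized CPM from 0, points are libraries (4 WT, 3 SCA7), and the mark beside them is the mean with its SD. *Ift57* and *Wdr35* are above WT in every SCA7 library, *Ift88* and *Ift81* below, and *Ift172* and *Kifap3* overlap.

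Among the 6 motor genes 2 were lower, 1 was higher and none passed the FC limits, where 14.2% of all genes tested were lower and 14.2% higher. *Kif3b*, a motor subunit of kinesin-II, had 114, 119, 98.8 and 119 CPM in WT and 94.1, 94.6 and 92.8 CPM in SCA7 (log2 fold change -0.26 with a standard error of 0.07, adjusted p = 0.015). Its partner *Kif3a* had a log2 fold change of 0.11 (adjusted p = 0.18). The accessory subunit *Kifap3* had 171, 183, 189.8 and 181 CPM in WT and 182, 174 and 181 CPM in SCA7 (adjusted p = 0.85). *Kif17*, the homodimeric kinesin, was the least expressed member at 3.11, 3.29, 2.89 and 3.50 CPM in WT and 3.27, 3.70 and 3.62 CPM in SCA7 (adjusted p = 0.38).

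In dynein-2 the heavy chain gene *Dync2h1* fell from 152, 141, 150.2 and 138 CPM in WT to 123, 123 and 124 CPM in SCA7 (log2 fold change -0.24 with a standard error of 0.06, adjusted p = 0.011). The light intermediate chain gene *Dync2li1* rose from 24.2, 26.8, 26.0 and 20.9 CPM to 29.0, 31.1 and 29.2 CPM (log2 fold change 0.28 with a standard error of 0.08, adjusted p = 0.024). Neither pair of groups overlapped. The calls are close to the threshold, with an adjusted p of 0.057 or 0.055 for *Dync2h1* without SCA7 replicate 1 or 2, of 0.058 to 0.098 for *Dync2li1* without WT replicate 1 or any single SCA7 replicate, and of 0.052 to 0.064 for *Kif3b* without WT replicate 2 or any single SCA7 replicate.

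Ratios between members of a single library do not depend on how libraries are scaled. The pairs below were chosen after their values were seen and are given as a description. *Bbs7* had 1.38, 1.22, 1.19 and 1.26 counts for each count of *Bbs4* in WT and 0.591, 0.666 and 0.639 in SCA7. *Arl6* had 0.832, 0.876, 0.920 and 0.788 counts for each of *Bbs7* in WT and 2.81, 2.67 and 3.10 in SCA7, and the mean ratio was 3.35 times that of WT. The libraries of a genotype were close to each other in both ratios, and the genotypes did not overlap. *Ift57* had 0.644 to 0.711 counts for each of *Ift88* in WT and 1.55 to 1.83 in SCA7. Within IFT-A, *Wdr35* had 0.751 to 0.785 counts for each of *Ift122* in WT and 1.14 to 1.21 in SCA7.

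In WT retina the BBSome genes had higher levels per kilobase than most IFT genes. Divided by the median transcript length, as RPK, they ranged from 4034 RPK for *Bbs1* to 16504 RPK for *Bbs9*, with a median of 9523 RPK, whereas the medians were 1727 RPK for IFT-A, 2371 RPK for IFT-B1, 2432 RPK for IFT-B2 and 787 RPK for the chaperonin-like genes. The levels ran from 82.1 ± 6.83 RPK for *Kif17* (SD, n = 4 WT libraries) to 16504 ± 1464 RPK for *Bbs9*. Of the 39 pairs of neighbours in this order, 27 were closer than the sum of their SD. The order depended on the length used. With the union of exons as length, the median RPK of the members was 732 and the rank correlation with the first order was 0.65. *Arl6* then came first at 7607 ± 710 RPK (SD, n = 4), followed by *Bbs9* at 3505 RPK, *Bbs7* at 3464 RPK and *Kifap3* at 3115 RPK, and *Kif17* was again last at 48.2 RPK. The median was then 2243 RPK for the BBSome, and 415, 592 and 569 RPK for IFT-A, IFT-B1 and IFT-B2. Under both lengths *Bbs9*, *Bbs7*, *Bbs4*, *Ttc8*, *Bbs5*, *Bbs2* and *Arl6* were among the 8 highest of the 40.

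**Figure D4:**
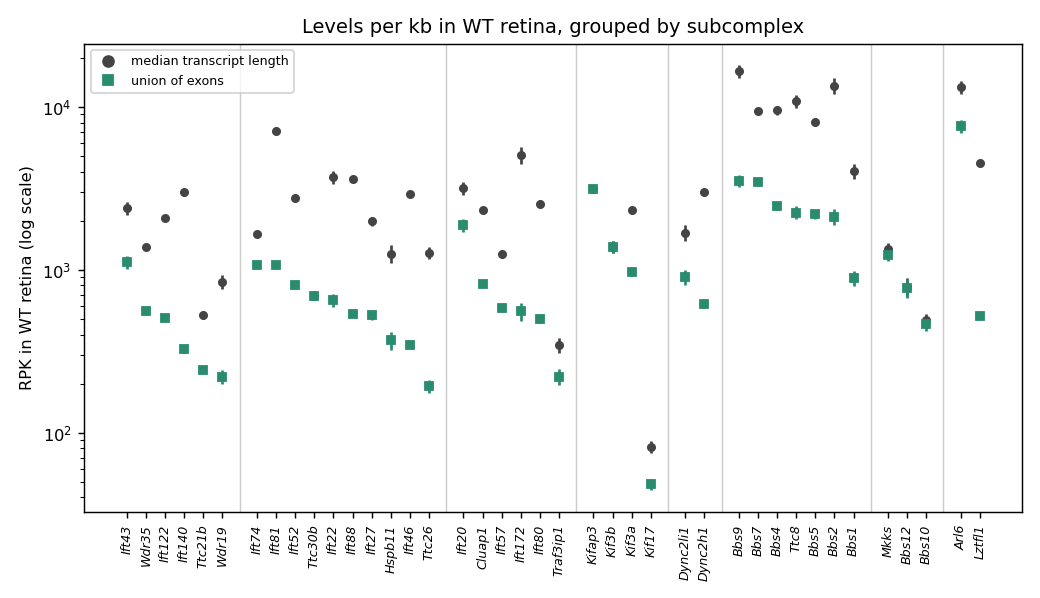
Level per kilobase of each member in WT retina. The y axis is RPK on a log scale, circles use the median transcript length and squares the union of exons, and bars are the SD over 4 WT libraries. All BBSome genes except *Bbs1* are at 2116 RPK or more under both lengths.

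Other genes of the same pathways were read from the same fit, as 5 lists of 41 genes, 39 of them tested (*Dynlt1b* and *Rfx4* had too few counts). Of these 39, 3 were downregulated and 3 upregulated, 10 were lower and 4 higher at the adjusted p, and the median log2 fold change was -0.07. Over all genes tested, 7.91% were downregulated and 7.47% upregulated, and 14.2% were lower and 14.2% higher. For the remaining subunits of dynein-2 and related motors, the intermediate chain gene *Wdr60* was lower by -0.51 (adjusted p = 1.5e-04), with 39.6 to 45.7 CPM in WT and 29.5 to 31.5 CPM in SCA7, and past the FC limit without WT replicate 2, WT replicate 3 or SCA7 replicate 2 (-0.52, -0.55 and -0.53). The other intermediate chain gene, *Wdr34*, and the light chain gene *Tctex1d2* were lower by -0.28 and -0.38 (adjusted p = 0.020 and 0.0079). *Kif3c*, a paralogue of *Kif3b*, was higher by 0.22 (adjusted p = 0.022), with 84.95 to 98.04 CPM in WT and 103 to 112 CPM in SCA7. *Dynlrb2*, a roadblock light chain, was upregulated from 0.974, 0.951, 1.24 and 0.673 CPM to 2.67, 3.75 and 3.29 CPM (log2 fold change 1.77, adjusted p = 3.1e-05), and its much more abundant paralogue *Dynlrb1* had a log2 fold change of 0.12 (adjusted p = 0.34).

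Among 12 other genes of ciliary trafficking, *Arl13b*, a small GTPase of the ciliary membrane, was downregulated by -0.63 (adjusted p = 2.8e-05), with 98.4 to 106 CPM in WT and 60.5 to 71.0 CPM in SCA7. *Tulp1*, a tubby-like protein of photoreceptors, was downregulated by -0.60 (adjusted p = 2.1e-04). *Arl3* and *Ccdc28b* were lower by -0.42 and -0.38 (adjusted p = 3.6e-04 and 0.0032). *Tulp3*, the tubby-like adaptor that links IFT-A to receptors, was upregulated by 0.41 (adjusted p = 0.0037), at 6.94 to 8.20 CPM in WT and 9.57 to 10.7 CPM in SCA7, but was within the FC limit without WT replicate 3 or SCA7 replicate 2 (0.37 in both). *Bbip1*, the small eighth subunit of the BBSome, had 38.5 to 47.0 CPM in WT and 40.9 to 44.7 CPM in SCA7 (adjusted p = 0.82).

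The 8 subunits of the chaperonin CCT, which works with MKKS, BBS10 and BBS12 on the BBSome, had a median log2 fold change of -0.07, and *Cct4* alone passed the test (-0.24, adjusted p = 0.049), followed by *Cct5* (-0.19, adjusted p = 0.12). Of 4 kinases of the MAK family and their activator, *Mok* was downregulated (-0.52, adjusted p = 9.8e-04). Its FC of 0.699 is at the limit of 0.7, and under 5 other settings and without WT replicate 1, WT replicate 2 or SCA7 replicate 1 it was not past it (-0.51 to -0.42, adjusted p still under 0.05). *Mak*, the kinase that limits the length of photoreceptor cilia, had a log2 fold change of 0.12 (adjusted p = 0.26). Among the RFX factors, which drive ciliary genes, *Rfx2* was upregulated from 2.89 to 3.64 CPM in WT to 7.23 to 8.02 CPM in SCA7 (log2 fold change 1.16, adjusted p = 7.7e-06). *Rfx3* was lower, from 72.6 to 91.2 CPM to 59.3 to 60.8 CPM (log2 fold change -0.43, adjusted p = 9.9e-04).

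**Figure D5:**
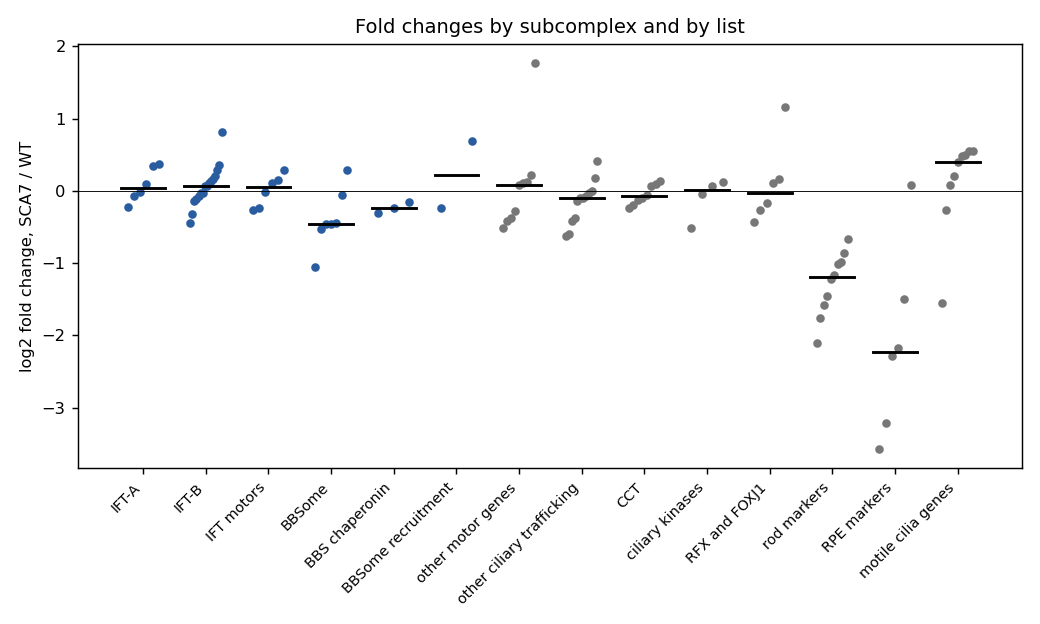
Fold changes of the members by subcomplex (blue) and of other gene lists (grey). The y axis is the log2 fold change, SCA7 / WT, each point is a gene, and bars are medians. The BBSome has a median of -0.45, the IFT groups have medians near 0 and the rod markers have -1.20. The other marker lists of neurons, glia and vessels are not plotted, among them bipolar markers with a median of -0.42 and amacrine markers with -0.24.

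Markers of other cells moved with genotype too. All 10 rod genes were downregulated (median -1.20), as were 9 of 10 cone genes (median -1.57) and 2 of 8 bipolar genes (median -0.42). The other cone gene, *Gnb3*, was upregulated (1.06, adjusted p = 5.5e-07), as were all 10 microglial genes (median 1.07). Of 6 genes of the retinal pigment epithelium, which adheres to the retina, 5 were downregulated (median -2.23), and their sum was 109 to 221 CPM in WT, lowest in WT replicate 3, and 19.6 to 44.5 CPM in SCA7. Of 9 genes of motile cilia, 1 was downregulated and 2 upregulated (median 0.40), and their sum was 17.6 to 20.8 CPM in WT and 19.9 to 22.9 CPM in SCA7. Within that list *Ccdc39* was the highest at 8.93 to 14.8 CPM over all libraries, followed by *Foxj1* at 2.98 to 4.33 CPM, and *Rsph1* was the lowest at 0.0306 to 0.214 CPM. *Ccdc39* and *Ccdc40* were upregulated (log2 fold change 0.40 and 0.55, adjusted p = 0.0093 and 0.048) and *Dnaic1* was downregulated (-1.55, adjusted p = 2.1e-05). The remaining lists, for amacrine (6 genes), horizontal (4), ganglion (7), Müller (6) and vascular cells (6), held no downregulated gene and 2 upregulated ones, both vascular, with medians of -0.24, -0.08, -0.04, 0.24 and 0.31. No marker of these lists was at 0 in any library, and the part of these cell types in the changes of the IFT and BBSome genes was not tested.

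Some members are on lists that the study compiled from other data. Of the 40, 10 (25%) are listed as direct targets of the cone-rod homeobox factor CRX, which is 0.901% of that list, and 5 of these (12.5% of the members, 0.735% of the list) also as targets of the rod leucine zipper factor NRL. Of all genes tested, 5.27% are on the CRX list and 3.34% on the NRL list. The NRL list as read differs in size from the study's description of it. None is on the list of photoreceptor specific genes. The targets of both factors are *Ift122*, *Ttc21b*, *Bbs5*, *Bbs9* and *Arl6*, and those of CRX alone are *Ift74*, *Ift57*, *Kif3b*, *Bbs1* and *Bbs12*. Among the 10 CRX targets, *Bbs5* was downregulated, *Ift57* and *Arl6* were upregulated, 4 others were lower, 1 was higher and 2 did not pass the test. *Bbs7*, with the largest decrease, is on neither list.

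Promoters of ciliary genes often hold an X-box, the site of RFX factors, and the letters GTTGCCA, an arm of that palindrome, were looked for on both strands in RefSeq promoters (GRCm38.p6, 250 bases before the start site to 50 after it). Of the 35 members with a promoter sequence, 8 (22.9%) held it, against 5.02% of all 27025 genes with such a sequence. The core letters TAATCC of CRX sites were found in 2 members (5.71%, against 8.14% of all genes) and TGCTGAC of NRL sites in 1 member (2.86%, against 5.28%). No promoter sequence was matched for *Ift80*, *Ift81*, *Ift122*, *Ttc30b* and *Dync2li1*. The 8 genes with GTTGCCA had log2 fold changes from -0.45 to 0.38 with a median of 0.06, and 3 were lower and 3 higher at the adjusted p. Over all genes tested, 14.2% were lower and 14.2% higher. None of the 4 genes past the FC limits holds GTTGCCA, but 4 genes are too few to compare with a share of 22.9%. The 27 members with a promoter sequence and no match had a median of -0.06, with 8 lower and 5 higher, beside the 8 genes with a match. A match in each of these genes is printed on the strand of its gene with the letters in capitals (TGGCAAC where they lie on the other strand), as letters and not as proven sites, because these are the promoters of the list that share a motif. *Lztfl1* has 2 arms facing each other, the full palindromic arrangement, and another match further down that is not printed.
Lztfl1 (chr9:123717771-123717800, minus strand): gaaatttctctGTTGCCAtTGGCAACggca
Traf3ip1 (chr1:91494578-91494607, plus strand): ggcgcgcgtccGTTGCCAaggccgcgcggc
Ift27 (chr15:78174072-78174101, minus strand): ggttgatgatgGTTGCCAggagcctgtttg
Bbs1 (chr19:4906608-4906637, minus strand): tggctgagctgGTTGCCAaggcgacgcctg
Ttc26 (chr6:38381513-38381542, plus strand): ctgtgtggatgTGGCAACtcgccgaagcac
Ift88 (chr14:57424080-57424109, plus strand): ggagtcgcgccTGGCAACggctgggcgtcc
Dync2h1 (chr9:7177009-7177038, minus strand): catagcgacggagctTGGCAACtgctgagt
Wdr35 (chr12:8974021-8974050, plus strand): gatgcgactgggcggcggtgGTTGCCAggc

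The motif thus stood in genes that fell, *Ift88*, *Dync2h1* and *Lztfl1*, in genes that rose, *Wdr35*, *Ttc26* and *Bbs1*, and in *Ift27* and *Traf3ip1*, which did not pass the test.

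Some values carry a limit from shared sequence. *Ttc30b* has the close copies *Ttc30a1* and *Ttc30a2*, at 19.3 and 0.660 CPM in WT, between which reads can be divided by the mapping. Exons of *Cluap1* share 22.4% of their length with *Gm20695* on the same strand, and those of *Mkks* share 29.3% with *AL731706.1* on the same strand, which has no row in the counts, and 5.33% with *Slx4ip* on the opposite strand. Of the 4 genes past the FC limits, *Ift57* shares 7.86% with the antisense transcript *Gm15518*, *Arl6* shares 2.62% with the antisense *4930547E14Rik*, and *Bbs7* and *Bbs5* share none. The strand option of the counting is not given in the sources used here, so sense and antisense reads of such stretches are not separated with certainty.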

How the data were processed

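Total RNA depleted of ribosomal RNA was sequenced as single reads from 4 WT and 3 SCA7 retina samples, each from a different mouse. The authors mapped the reads to mm10 with TopHat2 2.0.14 and Bowtie2 2.1.0, counted them per Ensembl gene (release 90) with HTSeq 0.6.1, and deposited raw counts without normalization. Gene names, positions and lengths came from GENCODE M21 (same assembly), which covered 52403 of 52550 genes.

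Genes were kept by filterByExpr and libraries scaled by TMM (factors 0.890 to 1.09), and genotypes were compared with glmQLFit (robust) and glmQLFTest of edgeR 4.0.16 in R 4.3.3, without covariates. RPK are counts over the DESeq2 size factor and the length in kb. The edgeR, DESeq2 1.42.0 and limma 3.58.1 steps were tested on simulated counts with known changes. Alternatives were other scalings, tests and filters, a replicate block, *Xist* as a covariate, other thresholds, and each library left out. The members, subcomplexes and lists were chosen with earlier results of these data known. Per-library values are given for called members and, per subcomplex, for the smallest adjusted p and the highest and lowest RPK; other pathway genes are named if called or among the 2 smallest adjusted p of their list, and a few further ones were added after their values were seen. The precision of each value is its SD over the mice or its standard error, and low genes such as *Rsph1* also carry a large counting error.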

Additional observations from a re-analysis of the deposited data

Results flagged for a closer look

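In 3 of the 40 members a single WT library stood apart from the other 3 WT libraries by the Dixon test, and chance alone gives about 1 such group in 20. *Bbs2* had 84.8 CPM in WT replicate 3, below 106 to 108 CPM in the others, and it was still above all SCA7 libraries. *Ttc8* had 106 CPM in WT replicate 4, below 126 to 129.9 CPM. *Mkks* had 64.4 CPM in WT replicate 3, above 54.4 to 55.5 CPM. WT replicate 3 also had the lowest summed level of pigment epithelium markers among the WT libraries, and the part of that difference in these values was not tested.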

How the results depend on the processing

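The count of 2 downregulated members held under the other settings (without WT replicate 3, *Bbs2* took the place of *Bbs5*) except without any filter beyond a single count, where *Bbs5* dropped out and 1 was left, and without the FC threshold, where 13 were lower. The upregulated members numbered 9 without the FC threshold, and 3 with DESeq2 size factors, the DESeq2 Wald test and no filter, where *Wdr35* was added. With each mouse left out in turn, 2 members were downregulated and 2 to 4 upregulated, the 4 without WT replicate 2 or SCA7 replicate 1, and the median log2 fold change was between -0.05 and -0.02. The median WT level was 732 RPK with the union of exons. With the replicate block the counts were 2 and 3, with *Wdr19* added, and the median was -0.03. Of the other pathway genes 10 were lower without the FC threshold, and *Mok* lost its call under 8 settings, leaving 2 downregulated under 7 of them. The correlations of deviations between libraries with the same replicate number were 0.01, 0.20 and 0.09, and not every library correlated best with its own number, so the numbers were not taken as pairs. The sample titles do give close animal numbers to WT and SCA7 mice of the same replicate number. WT replicate 4 has no such partner, and in the block fit it did not inform the difference between genotypes. No member called in the main comparison changed sign in any of 17 alternatives, of which those that only moved a threshold kept the same fit and could not change it. Of the members that did not pass the test, *Ttc21b*, *Kifap3* and *Ift27* changed sign in 4, 3 and 2 alternatives. Over 680 values of single members, 31 became downregulated or upregulated by the limits of that setting (18 of them where the FC threshold was dropped) and 2 lost this, both of *Bbs5*, whose FC lies at the limit. By the adjusted p alone, 9 of the 22 members were at 0.05 or more in at least 1 of the 7 fits that left out a library.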
